A study of Gasterosteus aculeatus with 12 samples.

Results

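At 9681 of the 321670 single-nucleotide sites that were listed in every embryo, the F1 embryos of a stickleback cross were either heterozygous or homozygous for the alternate base, and none was homozygous for the reference base. The sites were selected on the measured shares themselves. More than 12 reads were required in each of the 12 embryos, reads of low mapping quality could make up at most 5% of the raw reads pooled over embryos, and chromosome XIX and the unplaced sequence were left out. An embryo counted as heterozygous with an alternate share of 20% to 80%, as homozygous alternate from 98% and as homozygous reference up to 2%. A site was kept when every embryo had a call, with 3 or more in each of both genotypes. These 9681 sites are called members below.

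RNA came from 12 whole embryos at stage 19/20, 72 h post-fertilization, with 1 library per embryo. All belong to a single group, F1 embryos of LITC fish (Little Campbell River, an anadromous, mostly three-spined stock) crossed with the high-spine line, which descends from a Boulton by Bodega Bay cross and was selected for high spine number. The embryos came from another cross than the spine and fin samples of the study, which were not analysed here, and the labels do not give the sex of either parent. The embryos were raised in petri dishes after fertilization in vitro, and whether they share a clutch is not stated in the sources used here, so p-values measure the spread between these embryos. The files held 16302333 to 27003127 counted reads per embryo (median 23745251), and a read was counted once at each site it spanned.

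A heterozygous embryo carries an internal control, because both alleles of a gene are present in the same nuclei. Once errors of mapping are set aside, unequal read counts of the alleles are therefore read as a difference that acts in cis. It may lie in a promoter, an enhancer or the stability of the transcript. This reading holds for RNA transcribed in the embryo, and any RNA from the mother was not separated here. Genotypes at neighbouring sites are inherited together in blocks that end where a parental chromosome recombined. In an offspring family a site is heterozygous or homozygous alternate when a parent carries both bases and the other parent carries only the alternate base. The reference base of a heterozygous embryo then comes from the heterozygous parent, and its alternate base comes from the other parent. Parental genotypes were not analysed here, so which parent was heterozygous is not given for any site. Positions are on *gasAcu1-4*, the build of the files. No gene annotation or sequence of this build was used here, so sites are given by chromosome and position, and genes, exons and sequences are not named.

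The values that selected the members are given as a description. Members comprised 60462 heterozygous calls with a median alternate share of 49.0%, and 55710 homozygous alternate calls, of which 83.3% had no reference read at all. Between 3 and 9 embryos were heterozygous per member (median 7). Over the heterozygous embryos of a site 45 to 58589 reads were pooled (median 403), and the least covered embryo of a site had 13 to 6750 reads (median 36). At the limits of the rule, the lowest heterozygous share was 20.0% (I 1070510, 55 reads) and the nearest share left out was 19.7% (XII 7197492, 147 reads). On the other side the shares were 80% (I 8566780) and 80.5% (XV 2929948). The lowest homozygous alternate share was 98% (I 762681), and a site with 97.99% in an embryo was left out (VII 20429080). In the least covered embryo 373 members had 13 reads, and 338 sites with 12 reads were left out. A single uncalled embryo kept 2248 further sites out. Its alternate share was below 20% at 141 of them, from 80% to 90% at 68 and from 90% to 98% at 2039. An allele ratio beyond the 20% and 80% limits could not enter, so stronger differences are not among the members.

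Members lay on 21 chromosomes as the files name them, and chromosome VII held 1417 of them (14.6%), ahead of I with 749, IX with 675 and XII with 653. The fewest were on XXI with 215 and on the sequence named P with 19. Linkage was plain in which embryos were heterozygous together. The members fell into 384 distinct sets of heterozygous embryos, and 47 sets of 50 or more members held 5260 members (54.3%). The largest set had 1096 members, all on VII between 6747463 and 28238234, where embryos 1, 2, 5, 7, 8, 9 and 11 were heterozygous and the other 5 were homozygous alternate. The complementary set, with exactly those other 5 embryos heterozygous, had 34 members there. On I, 338 members over 20.3 Mb shared embryos 1, 2, 3, 6, 7, 8, 10 and 11, against 51 in the complementary set. On XII, 328 members over 8.97 Mb shared embryos 2, 5, 6, 7, 10 and 11, against 19. Across XX the sets were more even, with 119 members for embryos 1, 3, 5, 8, 9, 10, 11 and 12 and 104 for embryos 2, 4, 6 and 7.

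**Figure D1:**
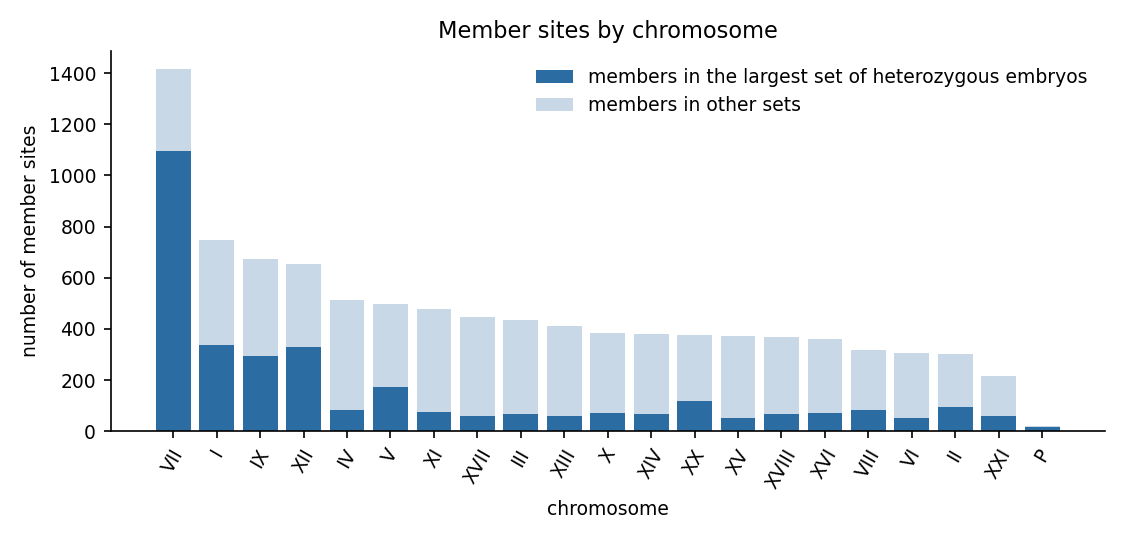
Number of member sites on each chromosome, with the part that shares the largest set of heterozygous embryos on that chromosome in dark blue and all other members in light blue. Chromosome VII had 1417 members, of which 1096 shared a set.

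Neighbouring members up to 1 kb apart had the same set in 83.2% of 3566 pairs and complementary sets in 11.1%. Over more than 1 kb to 100 kb these shares were 48.6% and 31.9% of 4984 pairs. For 99.98% of the members, a site on the same chromosome that segregated heterozygous and reference homozygous had the same set. Members were clustered, since 27.4% lay within 100 bp and 54.5% within 1 kb of another member, so they stand for 7006 occupied 1-kb windows and sites in a window often share reads. An embryo was heterozygous at 39.6% (embryo 12) to 61.8% (embryo 7) of the members, and at 44.3% to 57.3% when VII was left out.

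The bases differed from those of the other classes of sites. Transitions made up 59.9% of the members, 60.1% of the 37530 sites that segregated heterozygous and reference homozygous under the same filters, and 60.5% of the 16453 sites heterozygous in every embryo. A reference G or C with an alternate A or T was found at 39.3% of the members, 52.3% of the heterozygous and reference homozygous sites and 47.4% of the sites heterozygous throughout. The opposite change, from A or T to G or C, made up 42.0%, 29.5% and 34.6%. These shares are descriptions of linked sites and were not tested.

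Whether either allele was favoured was first asked for the embryos as a whole. The median reference share over an embryo's heterozygous members was 50.6% in the lowest embryo (12), 51.0% in the median embryo and 51.1% in the highest (10), with a mean of 50.96% ± 0.164 (SD, n = 12). It lay above 50% in 12 of 12 embryos (exact permutation test by sign flips, two-sided, p = 0.000488, the smallest that 12 embryos allow). The sites heterozygous and reference homozygous had 51.34% ± 0.117, and the members lay below them in every embryo, with differences from -0.764 to -0.0434 percentage points. The difference, members minus those sites, was -0.379 ± 0.196 points (SD, n = 12, 95% interval -0.504 to -0.255, exact permutation p = 0.000488). Against sites heterozygous in every embryo (51.02% ± 0.080) the difference was -0.062 points, with an interval of -0.154 to 0.030 and an exact permutation p of 0.168. The shift towards the reference was thus about 1 point in each of the 3 classes. Whether reads with the reference base map more readily was not tested.

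**Figure D2:**
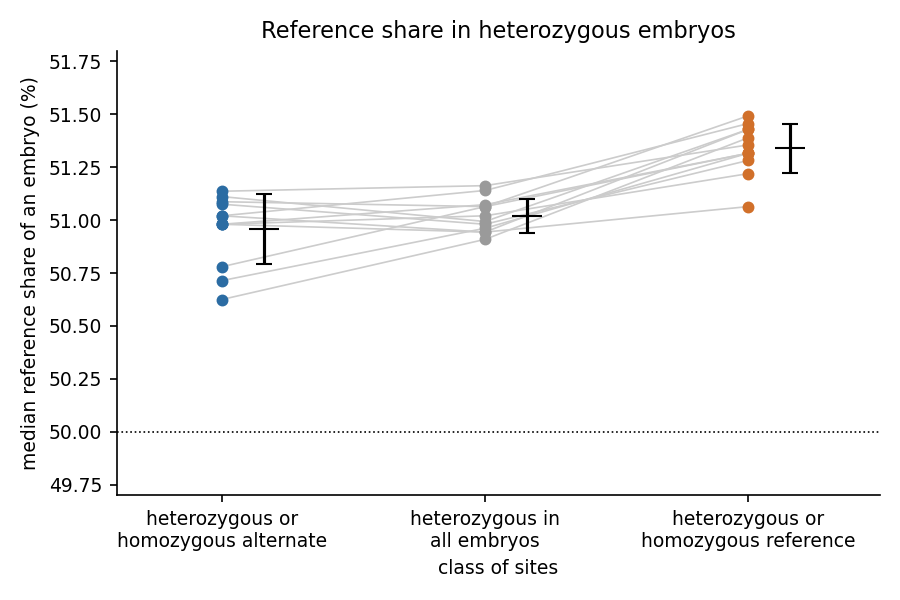
Median reference share (percent of reads) of each of the 12 embryos over its heterozygous sites, for members (blue), sites heterozygous in all embryos (grey) and sites that segregated heterozygous and reference homozygous (orange). Grey lines join an embryo, bars give mean and SD, the dotted line marks 50% and the axis starts near 50%. Every point lies above 50%, and the blue point of each embryo lies below its orange point.

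Allelic differences at single members were common and went both ways. When reference and alternate reads of the heterozygous embryos were compared by the quasi-likelihood test of edgeR, with the embryo as a block, 2163 of 9681 members (22.3%) had a Benjamini-Hochberg adjusted p below 0.05. Over all 68291 sites tested, which include the members, 21.9% did. The reference allele was higher at 1377 members (14.2%, against 14.9% of all sites) and the alternate allele at 786 (8.12%, against 7.01%). The member counts thus lay near the background. Sites heterozygous in every embryo were called at 27.1%, and heterozygous and reference homozygous sites at 20.0%. When the test was run against the median share of the sites heterozygous throughout, 50.96%, in place of 50%, the calls numbered 2111 and split evenly into 1062 with the reference allele higher and 1049 with the alternate allele higher. The part with the reference allele higher therefore changed from 63.7% to 50.3% of the calls with the expected share. That share is the median over sites of reads pooled over embryos, unlike the mean of 51.02% over embryos given above. It came from these same data. Its log2 ratio of 0.055 lay close to the median of 0.050 over members, so a near-even split largely follows from the choice. The number of calls also depended on the model, with 671 members called without the embryo block and 851 with DESeq2, all of them among the 2163.

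Most of the called differences were modest. Members with the reference allele higher had log2 ratios of 0.11 to 1.75 (median 0.52, a pooled reference share of 59.1%), and those with the alternate allele higher had -1.69 to -0.11 (median -0.52, a share of 41.1%). The SD of the log2 ratio between embryos was 0.35 at the median member. In every heterozygous embryo the direction was the same at 926 of the 1377 and 524 of the 786. The calls were made from these same ratios, so the shared direction is not separate support for them. Its share over all tested sites was not taken. The share of members called rose with pooled reads. Among members with 45 to 247 pooled reads 10.4% were called, with a median absolute log2 ratio of 0.74, and among those with 732 to 58589 reads 35.2% were called at a median of 0.35. The share called was 10.5% of members with 3 heterozygous embryos and 26.8% with 9, against 10.9% and 24.4% of all sites tested with those numbers. Pooled reads and the number of heterozygous embryos were not separated. Shares by pooled reads were not taken over all tested sites.

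Called members lay on all 21 chromosomes, in 1614 1-kb windows. The share called was lowest on V (66 of 498) and highest on VII (425 of 1417). Shares over all tested sites were not taken by chromosome. The largest set had 3 heterozygous embryos on V and 7 on VII. Members with 3 were called at 10.5% and with 7 at 26.0%, against 10.9% and 22.9% of all sites tested. Whether this number accounts for the difference between chromosomes was not tested. In the largest set on VII 352 of 1096 members were called (32.1%). The reference allele was higher at 216 and the alternate allele at 136, so members with the same set held differences in both directions. The largest set on IX had more calls with the alternate allele higher (48) than with the reference allele higher (30), and the largest set on I fewer (22 against 69). These counts include linked members that share reads. A stretch of 2242 bp on IX held 8 of the 48, and a stretch of 1131 bp on I held 13 of the 69. Shares over all tested sites were not taken by set, and the contrast between sets was not tested.

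The 6 members with the largest ratio in each direction, at most 1 per 100 kb, illustrate the range. The steadiest of them was XXI 744856, where embryos 3, 7 and 9 had reference shares of 76.9%, 77.6% and 77.2%. Its log2 ratio was 1.75 ± 0.14 (SE, adjusted p = 2.86e-09), and 441 pooled reads carried the reference base against 131 with the alternate base (77.1%, 95% Clopper-Pearson interval 73.4% to 80.5%, which covers counting error only). At XI 5729245 the shares were 70.7%, 76.9%, 73.7%, 79.6% and 73.6% in embryos 4, 6, 7, 9 and 10 (log2 ratio 1.59 ± 0.20). The 7 heterozygous embryos of XX 2217206 had log2 ratios of 1.34 to 1.85 with a median of 1.56. XII 4389226 was more variable, with shares from 66.7% in embryo 6 to 79.2% in embryo 11 (6 embryos, median log2 ratio 1.71). At IX 8063341 the log2 ratios ran from 1.42 to 1.71 (median 1.54, 6 embryos). VII 19903418 ranged from 61.8% reference reads in embryo 7 to 80% in embryo 2 (7 embryos, median log2 ratio 1.55), and 7 other members of its set lay within 1 kb. Adjusted p-values of these 6 lay between 3.32e-12 and 4.83e-08.

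In the other direction VIII 6067867 was the largest, with reference shares of 23.8%, 21.5%, 22.8%, 27.5% and 23.4% in embryos 2, 4, 5, 9 and 10 (log2 ratio -1.69 ± 0.09, adjusted p = 3.34e-18). Of its raw reads 4.91% had low mapping quality, close to the limit. Embryos 4, 9 and 12 had 29.3%, 24.4% and 22.7% at I 29046635, from only 104 reads (interval of the pooled 26.0%, 17.9% to 35.5%). At II 18326240 the shares of the 5 embryos were 21.6%, 25.3%, 29.2%, 26.0% and 27.6%. IX 13696490 spread more widely, with 25.8%, 20.0%, 33.3%, 22.6% and 38.5%. Shares of 33.0%, 21.8%, 26.8% and 22% were found at XX 4407329. The 6 embryos of XIII 17289252 had log2 ratios of -1.82 to -1.19 (median -1.32). The homozygous alternate embryos of the 12 sites had at most 3 reference reads each.

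**Figure D3:**
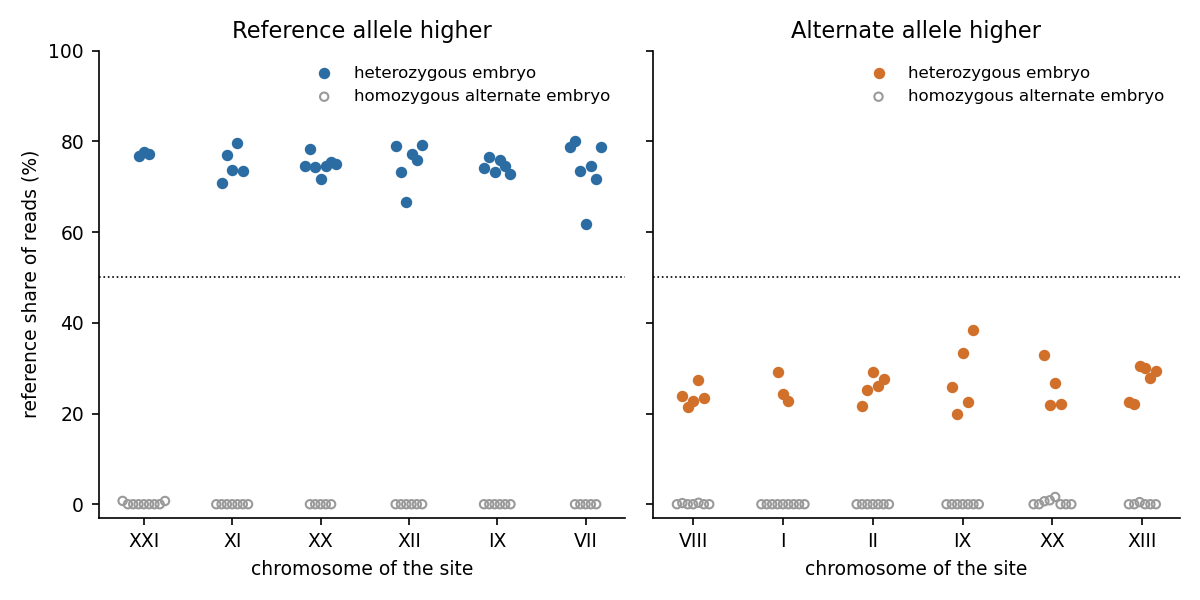
Reference share (percent of reads) of each embryo at the 6 members with the largest ratio in each direction, named by chromosome. Filled points are heterozygous embryos and open points homozygous alternate ones, and the dotted line marks 50%. Heterozygous embryos lie at 61.8% to 80% on the left and at 20.0% to 38.5% on the right.

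The best covered members showed how small a difference the data could resolve. IV 32214749 had the most reads, 58589 over 8 heterozygous embryos, with shares from 49.84% to 51.3% (log2 ratio 0.02 ± 0.03, adjusted p = 0.587). At VIII 910990 the 8 embryos had 55.4% to 58.7% (log2 ratio 0.39 ± 0.03, adjusted p = 2.61e-16), and each lay above 50%. IX 15903955 had 50.4% to 51.6% in 6 embryos. Its log2 ratio of 0.06 ± 0.03 was not called (adjusted p = 0.148), and all 6 embryos lay on the reference side of 50%. This site stayed uncalled in 6 of 7 alternatives, while the binomial test of pooled reads called it (adjusted p = 2.86e-05). The ratio ran from 0.005 to 0.06 over the alternatives run, among them the test against the expected share of 50.96%.

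Nearby members of a set moved together over short distances. Between neighbours with the same set, Pearson's r of the log2 ratio was 0.89 up to 100 bp apart (1459 pairs), 0.53 up to 1 kb (1507 pairs), 0.25 up to 10 kb (1274 pairs) and 0.04 up to 100 kb (1150 pairs). These pairs share embryos, and the closest also share reads. Where both neighbours up to 100 bp apart were called, 371 of 374 had the same direction, and from 10 kb to 100 kb 29 of 57 had. Between neighbours with complementary sets r was 0.43 (76 pairs), 0.11, 0.06 and 0.02 over the same distances. When called members of a set at most 1 kb apart were joined, 331 stretches held 2 or more of them, and 304 of these (91.8%) ran in a single direction. Such members share embryos and often reads, so the single direction is not separate support for each call. Stretches were not counted over all tested sites.

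The 14 stretches with 8 or more called members, a limit set after the values were seen, held up to 15. In 11 of them all called members had the same direction, and in 3 both directions were found. On XIII 14 called members between 20389711 and 20391794 all had the reference allele higher in embryos 1, 2, 5, 6, 7, 8, 9 and 10 (log2 ratios 0.34 to 1.46). On I 13 members between 9884807 and 9885937 did so with 0.49 to 1.05, and on IV 12 members between 20258295 and 20260824 with a median of 0.77. On VII 9 members between 12936633 and 12938901 all had the alternate allele higher, from -1.09 to -0.62. A stretch on VII from 16259232 to 16260605 was mixed, with the reference allele higher at 9 called members and the alternate allele at 2, and so was one on I from 26418637 to 26421104, with 1 and 7. The stretch with the most called members, 15 over 980 bp on VII from 18180637 to 18181616, was mixed too. There 6 had the reference allele higher and 9 the alternate allele, from -0.86 to 0.64, in the same 7 embryos.

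Read depth gave a second readout, which the selection did not use beyond the minimum of reads. It compares heterozygous with homozygous alternate embryos, grouped at each site by their call. In an offspring family, the first would carry the reference-bearing haplotype of the heterozygous parent and the second its other haplotype. Linked variants on these haplotypes cannot be told apart, and in whole embryos fewer cells that express a gene cannot be told apart from less RNA per cell. With edgeR on the total counts, 66 of 9681 members (0.682%) differed between the genotypes at an adjusted p below 0.05, against 0.591% of all 47211 sites tested. Depth was higher in the heterozygous embryos at 57 and lower at 9 of the 66. Over all sites tested, 0.347% were higher and 0.244% lower. Of the 37530 heterozygous and reference homozygous sites 107 were higher and 106 lower. The median log2 difference, heterozygous minus homozygous, was 0.03 over members and -0.02 over those sites. The 66 members lay in 47 stretches on 18 chromosomes. Without embryo 6 the count was 38 and without embryo 8 it was 40. DESeq2 called 176 (132 higher, 44 lower), and an unadjusted p below 0.05 was found at 1214 of 9681 members, against 5518 of the 47211 sites tested.

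Both readouts pointed the same way at most members where both were called. These members lay in 35 stretches, with neighbours at most 100 kb apart. Of 50 members called by both tests, 48 had the same sign, that is, more reference than alternate reads within heterozygous embryos and more reads in heterozygous than in homozygous embryos, or less of both. The signs agreed at 1623 of the 2163 members with an allelic call (75%) and at 57.9% of the 7518 without. The median log2 depth difference was 0.20 where the reference allele was higher, -0.11 where the alternate allele was higher and 0.02 at members without a call. Across all 9681 members Pearson's r was 0.38 and Spearman's rho 0.34, or r = 0.33 with 1 member per 1-kb window. Members are linked and both values use the reads of the same heterozygous embryos, so these are descriptions. The shared signs were not counted over all 47211 sites with both tests, so they are not shown to be particular to members. Whether easier mapping of reads with the reference base contributes to either readout was not tested.

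**Figure D4:**
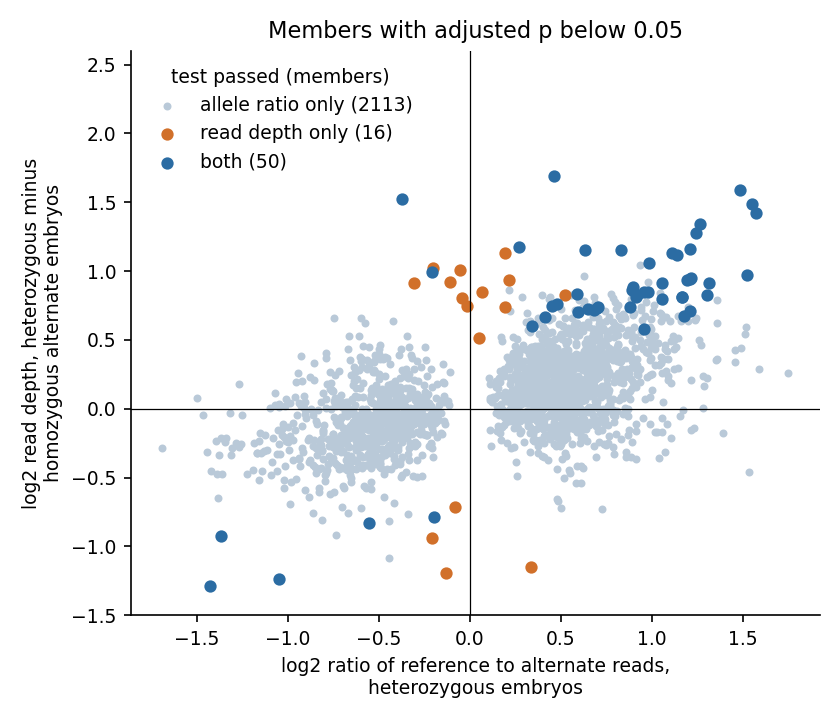
Log2 ratio of reference to alternate reads in heterozygous embryos (horizontal) against the log2 difference in read depth between heterozygous and homozygous alternate embryos (vertical), for members past an adjusted p of 0.05 in either test. Of the 50 dark blue members called by both tests 48 lie in the upper right and lower left.

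The largest depth differences are given in CPM, read counts scaled to a common library size after TMM adjustment. At sites called for depth, groups without overlap partly follow from the call. Overlap was not counted over all members or over all sites tested. XVII 19700609 had 4.94, 4.09, 2.82, 3.28 and 4.04 CPM in the heterozygous embryos 1, 2, 4, 8 and 12, and 0.920 to 1.47 (median 1.20) in the 7 homozygous embryos. The groups did not overlap (log2 difference 1.69 ± 0.17, adjusted p = 2.48e-05), and the reference shares in the heterozygous embryos were 63.1%, 61.2%, 56.0%, 55.0% and 53.7%. XII 4388798, which lies near XII 4389226 and has the same set, had 2.74 to 11.4 CPM (median 3.20) against 1.02 to 2.53 (median 1.47), and embryo 5 held the highest value at both sites. Its log2 difference of 1.59 ± 0.34 (adjusted p = 0.0372) kept its direction but lost the call, at adjusted p of 0.0508 to 0.0937, without embryo 3, 4, 7, 8, 9 or 12. Without embryo 5 it fell to 1.06 and was still called (adjusted p = 0.025). XX 2217206 had 2.17 to 3.55 CPM against 0.913 to 1.18 (log2 difference 1.42 ± 0.17, adjusted p = 0.00017), again without overlap. A stretch on XII from 7954780 to 7956107 held 9 members with an allelic call, all with the reference allele higher, and 6 of them were also called for depth (log2 differences of the 9 from 0.60 to 1.34).

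Among the members with lower depth in heterozygous embryos, XX 4407329 had 3.97, 2.06, 3.11 and 3.07 CPM in embryos 2, 4, 6 and 7 against 4.71 to 11.7 (median 7.19) in 8 homozygous embryos (log2 difference -1.29 ± 0.23, adjusted p = 0.00935). Its alternate allele was also the higher one within those embryos, as described above. XV 1321447 had 2.48, 2.08, 1.84 and 2.04 CPM in embryos 4, 5, 8 and 10 against 3.83 to 5.88 (median 4.89), with no overlap (log2 difference -1.23 ± 0.16, adjusted p = 0.000424), and reference shares of 31.8%, 33.3%, 31.1% and 34.0%. XV 3802811 had few reads, and 1.65, 0.650, 1.17 and 0.641 CPM in embryos 4, 5, 10 and 12 overlapped 1.47 to 3.05 in the others. Its depth difference of -1.19 ± 0.25 (adjusted p = 0.0335) lost the call in 9 of 12 fits without an embryo, with adjusted p of 0.0504 to 0.113. The allele ratio at this site was not called (log2 -0.13 ± 0.30, adjusted p = 0.809).

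The 2 members called by both tests with opposite signs, I 3185351 and X 627648, had the alternate allele higher and more reads in heterozygous embryos. X 627648 had reference shares of 47.8%, 47.1%, 44.5%, 48.2% and 44.3% with 34.3 to 48.2 CPM in heterozygous and 15.8 to 24.1 CPM in homozygous embryos (log2 depth difference 1.0 ± 0.13, adjusted p = 0.000345). Its allelic call (log2 -0.21 ± 0.06, adjusted p = 0.006) was lost with DESeq2 and without the block. I 3185351 had 9.16 to 29.9 CPM (median 18.5) in 8 heterozygous embryos against 3.53, 7.10, 4.17 and 11.6 in embryos 2, 6, 7 and 8 (log2 1.52 ± 0.29, adjusted p = 0.0165, or 0.0531 without embryo 6 and 0.0609 without embryo 7). Its allelic call (log2 -0.37 ± 0.09, adjusted p = 0.00164) was lost with DESeq2 (0.344) and without the block (0.326). Its reference shares fell apart, with 58.4%, 52.3% and 56.8% in embryos 1, 3 and 11 and 35.5% to 39.8% in embryos 4, 5, 9, 10 and 12.

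In an offspring family, heterozygous embryos of a member share the reference-bearing haplotype but can carry either haplotype of the other parent. After the values of I 3185351 had been seen, genotype calls of nearby sites were used to divide the heterozygous embryos of a member into subsets. The question was whether the allele ratio differed between these subsets. The subsets were not assigned to a parent, so whether they carry different haplotypes of the other parent was not tested. Within 100 kb of a site, the most frequent set of heterozygous embryos other than the site's own set or its complement was taken from 3 or more sites, where it divided the heterozygous embryos into subsets of 2 or more. Such a division was found for 3816 members (39.4%) from a median of 16 supporting sites. The difference in log2 ratio between the subsets was tested with edgeR as an interaction of allele and subset, with the embryo as a block. It passed an adjusted p of 0.05 at 78 of the 3816 members (2.04%), against 2.36% of the 18499 sites tested. On simulated counts this test recovered 29 of 200 sites changed by a log2 difference of 1, so it missed most differences of that size there. The 78 lay in 59 stretches on 16 chromosomes, with absolute differences of 0.28 to 2.08 (median 0.95, against 0.23 over all 3816). At 71 of the 78 the shares of the subsets did not overlap, as at 620 of all 3816 (16.2%). At 22 of the 78 they lay on opposite sides of 50%, which was not counted over all 3816. The 78 were called for a difference between subsets, so both counts are partly fixed by the call. The test over all heterozygous embryos had called 37 of the 78 and not the other 41. The count was 43 without embryo 2 and 45 without embryo 9. DESeq2 called 18, all among the 78, and the fit without the block called 0 (131 members at an unadjusted p below 0.05).

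The division at I 3185351 was the one seen in its shares. At 16 sites within 100 kb the set was that of embryos 4, 5, 9, 10 and 12 or its complement. Embryos 1, 3 and 11 exceeded those 5 by 1.08 ± 0.12 on the log2 scale (SE, adjusted p = 1.14e-15). The comparison was set up after these same shares had been seen, so the p-value is not support for a difference at this site. The next examples are the 5 with the largest difference and no overlap, at most 1 per 100 kb, chosen by this rule after the test. X 16032470 had 38.0%, 44.6%, 37.5% and 48.0% reference reads in embryos 2, 9, 10 and 12 and 72.4%, 76.4% and 71.0% in embryos 4, 7 and 8. The difference was -1.91 ± 0.26 (adjusted p = 3.43e-10), while the test over all 7 embryos gave a log2 ratio of 0.09 (adjusted p = 0.759). VII 21701085 had 66.7%, 71.2%, 77.8%, 77.6% and 76.9% in embryos 1, 5, 7, 8 and 11 and 53.5% and 44.3% in embryos 2 and 9 (difference 1.59 ± 0.29, adjusted p = 1.24e-05). At IX 12031905 embryos 1, 4 and 7 had 29.4%, 22.1% and 38.1% and embryos 3 and 6 had 65.6% and 61.8%. At IX 2311042 embryos 2, 8, 9 and 10 lay at 47.6% to 50.5% and embryos 4 and 7 at 71.0% and 79.4%. With DESeq2 the calls at IX 12031905 (adjusted p = 0.123), IX 2311042 (0.145) and XI 16165630 (0.618) were lost, and without the block that at each of the 6 sites was. XI 16165630 rested on few reads (18 to 32 per embryo), and its adjusted p of 0.0127 rose to 0.0543 to 0.207 without embryo 2, 7, 9, 11 or 12.

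**Figure D5:**
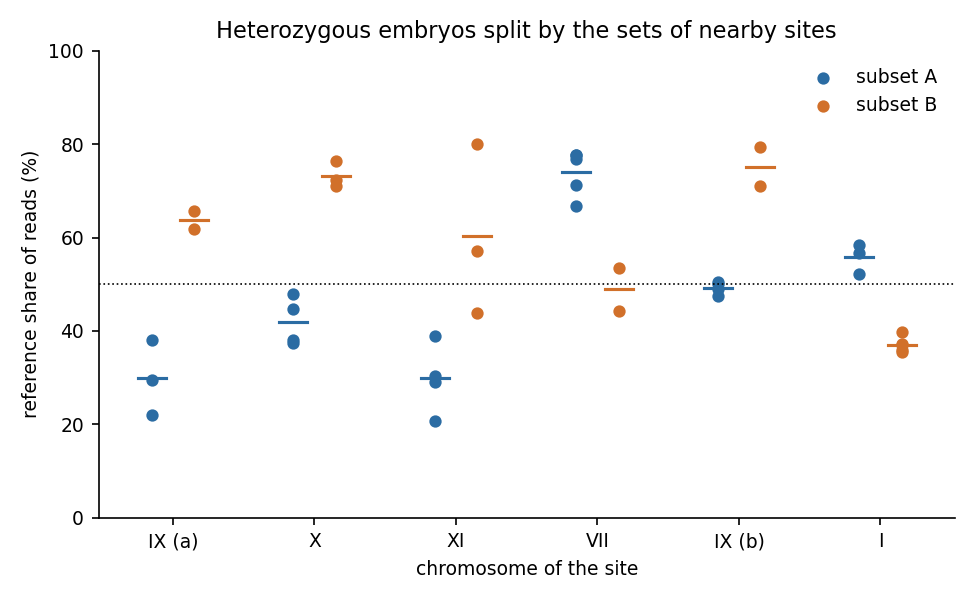
Reference share (percent of reads) of the heterozygous embryos at 6 members, named by chromosome, divided into subsets A and B by the sets of heterozygous embryos at nearby sites. Lines mark the mean of a subset and the dotted line 50%, IX (a) is position 12031905 and IX (b) position 2311042. The subsets do not overlap at any of the 6, which follows from how these sites were chosen. Over all 3816 members with such a division, 620 (16.2%) had no overlap.

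The *HOXDB* cluster, the subject of the study, was hardly covered by members. The study printed positions of *HOXDB* SNVs for its comparison of spine and fin tissues. It states that informative variants differed between that cross and the embryo cross. It also scored whole embryos, with allelic differences at some *HOXDB* SNVs but no striking difference between the alleles. Distances given here are to the printed positions. No member lay within 4 kb of these positions, and 2 lay within 100 kb. Chromosome VI 17685245 had reference shares of 60%, 55.7%, 65.3% and 57.1% in embryos 2, 3, 5 and 11, all above 50%. Its log2 ratio of 0.55 ± 0.21 was not called (adjusted p = 0.0528). It stayed uncalled in 5 of 6 alternatives, while the binomial test of pooled reads called it (adjusted p = 0.0391). VI 17833574 had 30% to 70% in 7 embryos, which lay on both sides of 50% (log2 ratio 0.32 ± 0.22, adjusted p = 0.34).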

How the data were processed

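The authors trimmed the reads with Cutadapt 2.4 through Trim Galore, mapped them to *gasAcu1-4* with STAR in two-pass mode, adjusted base qualities and called variants with GATK 4.1.4.1, and deposited counts of reads per allele at each site from its ASEReadCounter, without normalization. Libraries were made from mRNA with a stranded kit, and the counts carry no molecular identifiers.

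Here sites were joined over the 12 embryos, filtered and called. Allele counts were compared with edgeR 4.0.16 (R 4.3.3) in 1 matrix per number of heterozygous embryos, with Benjamini-Hochberg adjustment over all 68291 sites with 3 or more. The embryo is the block because both alleles come from 1 library, which is where the pairing comes from. Depth was compared with TMM factors over members and the sites heterozygous and reference homozygous. Standard errors are derived from the F statistic. Sign-flip tests over embryos were exact. On simulated counts with 200 sites changed by a log2 ratio of 1, 166 were recovered and 7 unchanged sites called over 68291 sites (allelic test), 189 and 5 over 47211 (depth), and 29 and 3 over 18499 (subsets).

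Named sites were the 6 members per direction with the largest called ratio and the same direction in every heterozygous embryo, the 3 with the most reads and the 3 per direction with the largest called depth difference (at most 1 per 100 kb), and sites at the limits. The 2 near *HOXDB*, the 2 with opposite signs, the stretches and the comparison of subsets were added after values were seen. The members and lists were chosen with earlier results of these data known. Alternatives used DESeq2 1.42.0, no block, other windows, more reads, 1 site per 1 kb, and fits without each embryo or without VII. Tables were handled in Python 3.11.15 (pandas 2.3.3, numpy 2.4.6), exact tests used scipy 1.17.1, and plots were drawn with matplotlib 3.10.9.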

Additional observations from a re-analysis of the deposited data

Results flagged for a closer look

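Within the groups of embryos at the named sites, 6 of 65 groups examined held an embryo far from the others. The measure was Dixon's ratio, the gap to the next value as a part of the range. Its rate is about 1 in 20 for independent, normally distributed values. The groups were linked, partly chosen for large depth differences, and CPM was not put on a log scale. An excess over that rate is therefore not shown. All 6 concern read depth and none an allele ratio. Embryo 5 was the highest of the heterozygous embryos at XII 4389226 (12.95 CPM, next 5.40, n = 6), at XII 4388798 (11.4 CPM, next 3.74, n = 6) and at VIII 6067867 (18.6 CPM, next 11.7, n = 5). The neighbouring pair on XII shares its set of embryos, so these are not separate events. Embryo 12 was the highest at VIII 910990 (420.6 CPM, next 328.4, n = 8) and at X 627648 (48.2 CPM, next 37.5, n = 5). Among the homozygous embryos of XII 4388798, embryo 1 had 2.53 CPM, above the next with 1.54 (n = 6).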

How the results depend on the processing

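Of the 2163 members with an allelic call, 1177 also had an absolute log2 ratio of 0.5 or more, 1384 of 7006 were called with 1 site per 1 kb, 851 with DESeq2 and 671 with no replicate block for the embryo, while the expected share of 50.96%, the 10% to 90% window, more than 30 reads, the pooled binomial test and the fit without VII gave 1606 to 2567, and leaving out an embryo gave 1982 to 2050. The 66 depth calls became 176 with DESeq2, 136 with the 10% to 90% window and 35 of 7006 with 1 site per 1 kb, and 38 to 60 without an embryo. The 78 members that differed between subsets became 18 with DESeq2, 0 with no replicate block and 43 to 70 without an embryo. Fewer members were tested with 1 site per 1 kb (7006) and with more than 30 reads (5626), and more with the 10% to 90% window (9967). With more than 30 reads 28.5% had an allelic call, against 22.3% of all 9681 members. The fit without VII left out its 1417 members. For the remaining settings the cause was not tested. The mean reference share stayed between 50.73% and 51.02% and the difference from heterozygous and reference homozygous sites between -0.466 and -0.290 points over all alternatives run. Leaving out an embryo gave 50.94% to 50.99% and -0.410 to -0.344 points. Of 25 named allelic and depth results 17 kept both their direction and their side of the threshold under every alternative run. At IV 32214749, which was not called, the log2 ratio was -0.033 against the expected share. Without the embryo block 2 named allelic calls were lost, I 3185351 and X 627648, both lost with DESeq2 as well, and each of the 6 named differences between subsets.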
